A study of Mus musculus with 4 samples.

Results

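The heavy-chain J segments Ighj1, Ighj2, Ighj3 and Ighj4 and the kappa J segments Igkj1, Igkj2, Igkj4 and Igkj5 were followed in λ-MYC lymphoma cells. They were chosen by name, from gene symbols of the GENCODE M21 annotation, and are 8 of the 34866 genes in the table. From the spleens of 2 sick λ-MYC Tom+/ki mice, called tumors #1 and #2, B220+ IgM+ cells had been sorted by Tom fluorescence into Tom- and Tom+ cells, and the 4 samples gave 4 RNA-seq libraries. All libraries share the genotype. The mice carry the λ-MYC transgene, a human MYC gene under λ light chain regulatory sequences, 1 Cre allele and 1 R26tdTom allele, so that Cre switches on Tomato (Tom) in cells that have made Cre and in their progeny. Tom+ therefore reports that Cre was made at some time, whether or not it is still made, and the ages of these 2 mice were not used here. Each tumor is 1 mouse, so Tom+ and Tom- cells could be compared in 2 pairs, and the tumors themselves could not be tested against each other.

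J segments are the short gene pieces that complete the variable exon of an antibody gene. In developing B cells the RAG recombinase joins a heavy-chain V, a D and a J segment, and later a light-chain V and J segment, and RNA splicing then links the rearranged J segment to the constant region. Each allele that is rearranged uses 1 J segment, so cells descended from the same B cell carry the same J segments unless further rearrangement takes place, and a mixed B cell population uses several. Somatic hypermutation and class switching come later, in mature B cells.

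The segments are printed because their length and likeness set what reads of the study's length could tell apart. They are the annotated J transcripts of GENCODE M21 on GRCm38, 5′ to 3′ on the coding strand, with the core of the conserved J motif in capitals. The heavy-chain segments lie on the minus strand of chromosome 12, in the order Ighj1 (chr12:113429781-113429833), Ighj2 (chr12:113429468-113429515), Ighj3 (chr12:113429085-113429132) and Ighj4 (chr12:113428514-113428567). The kappa segments lie on the plus strand of chromosome 6, in the order Igkj1 (chr6:70722562-70722599), Igkj2 (chr6:70722916-70722954), Igkj4 (chr6:70723548-70723585) and Igkj5 (chr6:70723886-70723923). Igkj3 (chr6:70723223-70723260), which is known as a nonfunctional segment and is not a member, is printed for comparison.
Ighj1: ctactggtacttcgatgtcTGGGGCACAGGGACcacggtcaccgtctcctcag
Ighj2: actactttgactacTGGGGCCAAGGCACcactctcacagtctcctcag
Ighj3: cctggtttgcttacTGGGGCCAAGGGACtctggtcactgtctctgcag
Ighj4: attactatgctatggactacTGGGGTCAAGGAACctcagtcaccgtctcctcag
Igkj1: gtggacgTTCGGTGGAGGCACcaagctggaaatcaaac
Igkj2: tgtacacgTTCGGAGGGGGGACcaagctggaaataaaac
Igkj3: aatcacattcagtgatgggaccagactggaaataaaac
Igkj4: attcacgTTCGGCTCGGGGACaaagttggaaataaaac
Igkj5: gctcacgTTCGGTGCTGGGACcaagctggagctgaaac

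The capitals mark TGGGGNNNAGGNAC in heavy-chain segments, where a tryptophan codon begins the motif, and TTCGGNNNNGGNAC in kappa segments, where a phenylalanine codon begins it. The letters are the bases shared by the 4 members of a locus over 14 positions, so their presence in the members is given. Both strands were searched, and the 2 motifs end in the same letters. The heavy-chain motif was found in 4 of 4 Ighj segments and in 0.0113% of the first 60 bases of all 141515 transcripts of at least that length. The kappa motif was found in 4 of 5 Igkj segments, with no match in Igkj3, and in 0.0198% of those transcripts. It was also found in 4 of 5 λ J segments and in 11 of 70 T cell receptor J segments (15.7%), whereas the heavy-chain motif was in none of these. The 8 members are 38 to 54 bases long and all 8 are shorter than the 60-base reads of the study. Segments of a locus resemble each other. Counted from the 3′ end, Igkj1 and Igkj2 were identical at 32 of 38 bases (84.2%) and shared a run of 14 bases, and the longest run shared by any heavy-chain pair was 16 bases, between Ighj1 and Ighj4. How the authors' quantification placed reads that overhang such short transcripts or fit several of them is not known, and the TPM of a single segment is uncertain to that extent.

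Igkj2 and Igkj5 have a second annotated transcript, of 43 and 42 bases, that covers the segment itself. Their deposited values may include reads from it. The gene Ighj2 differs in that its second transcript lies upstream of the segment, over the signal at which RAG cuts. It is shown because the deposited value of Ighj2 may include reads from it. The transcript (chr12:113429514-113429567) has the nonamer GGTTTTTGT and, 23 bases further on, the heptamer position TAGTGTG in capitals, next to the start of the J segment.
Ighj2 upstream transcript: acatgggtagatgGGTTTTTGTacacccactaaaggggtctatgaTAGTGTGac

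Abundance is given in transcripts per 1000000 transcripts (TPM), a unit per transcript length. How the length of transcripts shorter than the reads was treated is unknown. Levels of different segments, and of segments and longer genes, are therefore set side by side only with that limit. The number of reads behind the values is unknown too. Counting error therefore cannot be put in an interval, and how low a level would still have been seen where 0 is listed is unknown. Where 2 values of a tumor are given together, the first is that of Tom- and the second that of Tom+ cells. Immunoglobulin genes together took between 5.35% and 9.76% of the TPM of a library. The 8 J segments made up between 67.7% and 72.5% of that immunoglobulin TPM, a share to which the limit of short transcripts applies. Of the B cell markers, Cd79a, a signaling chain of the B cell receptor, was at 120 to 346 TPM and Pax5, a B cell transcription factor, at 241 to 511 TPM over the 4 libraries. The T cell markers summed to 1.17 to 8.27 TPM, with Trbc1 and Trbc2 at 0 throughout, the myeloid markers to 0.593 to 8.77 TPM, the NK cell markers to 0.0349 to 0.592 TPM, and the erythroid markers to 0.619 to 21.5 TPM. In bulk libraries, fewer cells of a type and less RNA per cell cannot be told apart.

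Short segments of other loci were looked at for signal in the same libraries. Of 92 genes in the table annotated at 60 bases or less, 81 were listed at 0 in all libraries, and the 11 above 0 were all immunoglobulin J segments. All 80 T cell receptor J segments and all 14 heavy-chain D segments were listed at 0. The D segments are shorter still than the J segments, and their absence from the table's values says nothing about which D segments the cells used.

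The heavy-chain J segments differed in order between the tumors. In tumor #1, Ighj2 led with 9398 TPM in Tom- and 7644 TPM in Tom+ cells, which was 86.8% and 83.7% of the summed Ighj TPM. Ighj1 followed at 836 and 920.6 TPM, or 7.72% and 10.1%. Ighj4 was at 278 and 374 TPM and Ighj3 at 320 and 192 TPM, so that the least abundant pair of segments took between 2.10% and 4.10% each, and their ranges over the 2 libraries overlapped.

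In tumor #2, Ighj3 took the lead, at 7596 TPM in Tom- and 9634 TPM in Tom+ cells. Its share was 63.3% in Tom- but 37.7% in Tom+ cells. Ighj1 was at 2518 and 6754 TPM (21.0% and 26.4%), and Ighj4 at 1178 and 5418 TPM (9.82% and 21.2%). Ighj2, the leading segment of tumor #1, was the lowest here, at 705 and 3757 TPM (5.88% and 14.7%). The rank of the 4 heavy-chain segments was the same in Tom- and Tom+ cells of tumor #2. The highest and the lowest share lay closer together in Tom+ cells.

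Among the kappa segments, tumor #1 had a pair of leaders. Igkj5 was at 17846 TPM in Tom- and 16207 TPM in Tom+ cells, and Igkj1 at 15958 and 15738 TPM. Their shares of the summed Igkj TPM were 52.3% and 50.4% for Igkj5 and 46.8% and 48.9% for Igkj1. Igkj2, at 254 and 137 TPM, and Igkj4, at 36.9 and 99.6 TPM, each held at most 0.744% of the sum. Igkj4 was the lowest of the 8 members in each of the 2 libraries of this tumor.

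In tumor #2, Igkj1 was the single leading kappa segment, with 20062 TPM in Tom- and 26182 TPM in Tom+ cells (82.8% and 63.6%). Igkj2 was at 2255 and 5564 TPM (9.31% and 13.5%) and Igkj5 at 1052 and 6990 TPM (4.34% and 17.0%). Igkj4 was at 859 and 2463 TPM (3.55% and 5.98%). Igkj5 thus stood below Igkj2 in Tom- cells and above it in Tom+ cells, and the leader held a smaller share in Tom+ cells, as in the heavy-chain locus of the same tumor.

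**Figure D1:**
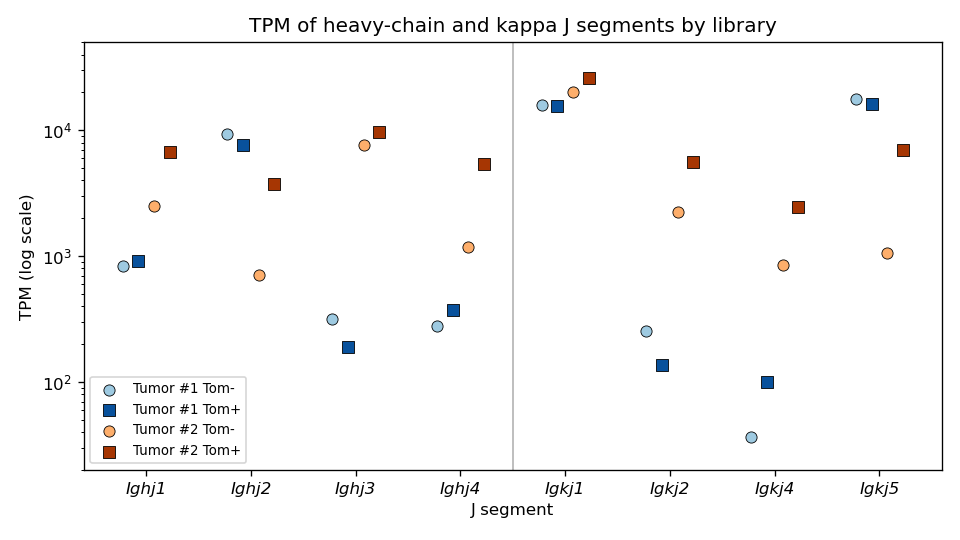
TPM (log axis) of each J segment in the 4 libraries. Circles are Tom- and squares are Tom+ cells, blue is tumor #1 and orange is tumor #2, and there is 1 library for each combination. Ighj2 and Igkj5 are higher in both libraries of tumor #1, and Ighj1, Ighj3, Ighj4, Igkj2 and Igkj4 are higher in both libraries of tumor #2.

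**Figure D2:**
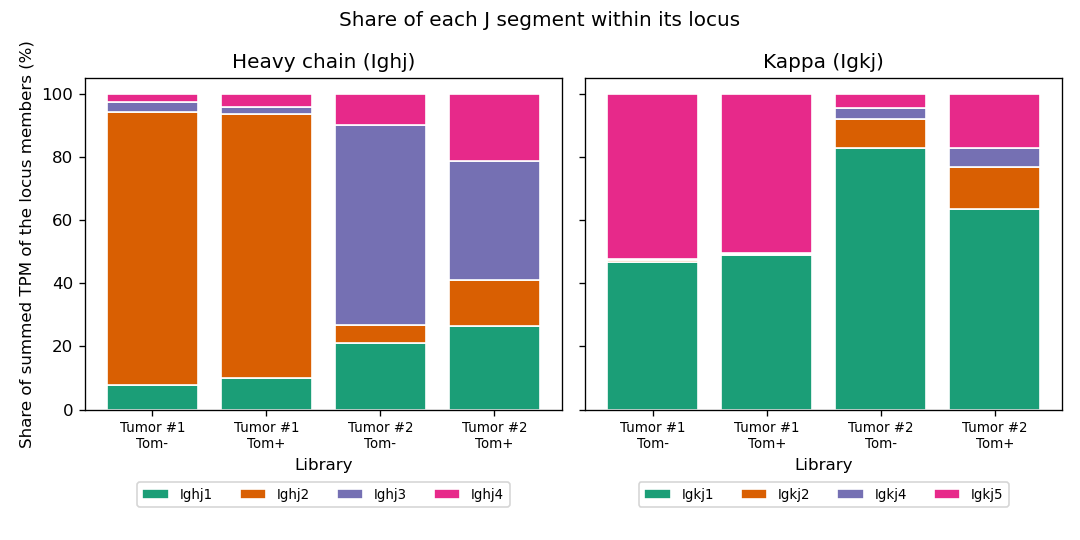
Stacked bars of the share (%) of each segment in the summed TPM of the Ighj members (left) or Igkj members (right), with 1 bar per library. Ighj2 fills 86.8% and 83.7% of the heavy-chain bars of tumor #1, and in tumor #2 the largest parts, Ighj3 and Igkj1, are smaller in the Tom+ than in the Tom- bar.

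The summed absolute difference of shares, divided by 2, gives the percentage of TPM that would have to move to another segment to turn the makeup of a library into that of another. For Ighj it was 3.90 percentage points between Tom- and Tom+ cells of tumor #1 and 25.6 percentage points in tumor #2. Between the tumors it was 80.9 percentage points in Tom- and 69.0 in Tom+ cells. For Igkj it was 2.30 percentage points within tumor #1 and 19.3 within tumor #2, against 48.0 and 33.4 between the tumors. In both loci the libraries of a mouse were closer to each other than to the libraries of the other mouse with the same Tom status. With 1 mouse per tumor this is a description, without a test.

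Between the tumors, a fold of at least 2 on log2(TPM + 1) in the same direction in both Tom- and Tom+ cells was counted as a difference. Across the 11339 genes that reached 1 TPM in 2 or more libraries, 14.9% differed by this count, 11.8% being higher and 3.1% lower in tumor #2. All 8 members were among the 11339 genes. Of the 8, 5 were higher and 2 were lower in tumor #2, and Igkj1 did not reach the limit. Ighj3 was 23.7-fold higher in Tom- cells and 50.3-fold higher in Tom+ cells of tumor #2, and Igkj4 was 23.3-fold and 24.7-fold higher. Igkj2 was 8.89-fold and 40.7-fold higher. Ighj2 was 13.3-fold higher in Tom- cells and 2.03-fold higher in Tom+ cells of tumor #1, and Igkj5 was 17.0-fold and 2.32-fold higher there. Both segments were close to the limit in Tom+ cells. Igkj1, the most abundant member on average, was only 1.26-fold and 1.66-fold higher in tumor #2.

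Taken over all 4 libraries, the order of mean TPM was Igkj1 (19485 ± 4888, SD, n = 4), Igkj5 (10524 ± 7919), Ighj2 (5376 ± 3905), Ighj3 (4435 ± 4898), Ighj1 (2757 ± 2775), Igkj2 (2052 ± 2535), Ighj4 (1812 ± 2438) and Igkj4 (865 ± 1129). The ranges of neighbors in this order overlapped in 7 of 7 pairs, so the pooled order does not separate them. Within tumor #1, the ranges over Tom- and Tom+ cells overlapped in 2 of 7 neighboring pairs, Ighj4 with Ighj3 and Ighj3 with Igkj2. Within tumor #2 they overlapped in 5 of 7, and Igkj1 and Ighj3, which headed the order, were the segments that stood apart.

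The comparison of Tom+ with Tom- cells asks whether B cells with a history of Cre expression carried other J segment transcripts than their Tom- counterparts of the same mouse. In limma's moderated test on log2(TPM + 1), with the tumor as a block and Benjamini-Hochberg adjustment, 0 of the 8 members had an adjusted p-value below 0.05. Across all genes 0 of 11339 did so (0%), and 530 (4.67%) had an unadjusted p-value below 0.05, among them 1 member, Igkj4. The adjusted p-values of the members ranged from 0.936 to 0.985. The 2 pairs leave 1 residual degree of freedom per gene.

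Igkj4, the least abundant member, was 2.70-fold higher in Tom+ cells of tumor #1 and 2.87-fold higher in Tom+ cells of tumor #2. Its tumor #1 values, 36.9 and 99.6 TPM, lay below those of the nonfunctional Igkj3 (222 and 219 TPM). How far reads of similar segments entered these low values was not tested. Its log2 fold change was 1.46 (SE 0.12), with a p-value from limma of 0.000825 before and 0.936 after adjustment. Without the tumor block its unadjusted p-value from limma was 0.545. Ighj1 and Ighj4 were the other members higher in Tom+ cells of both tumors, with 1.10-fold and 2.68-fold for Ighj1 and 1.35-fold and 4.60-fold for Ighj4. Across all genes, 21.6% were higher in Tom+ cells of both tumors and 29.5% were lower in both. Of the members, 3 were higher in both and 0 were lower in both.

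The remaining 5 members went in opposite directions in the tumors, as 47.3% of all genes tested did. Igkj5 was 0.908-fold in Tom+ relative to Tom- cells of tumor #1 and 6.64-fold in tumor #2 (log2 fold change 1.30, SE 0.81). Ighj2 was 0.813-fold and 5.33-fold (1.06, SE 0.76), and Igkj2 was 0.539-fold and 2.47-fold (0.21, SE 0.62). Ighj3 was 0.599-fold and 1.27-fold (-0.20, SE 0.32). Igkj1 was nearly level in tumor #1, at 0.986-fold, and was 1.31-fold in tumor #2 (0.18, SE 0.16). The small log2 difference of Igkj1 in tumor #1 (-0.020) was 0.012 when mitochondrially encoded genes were left out of the scaling. Igkj1 held rank 5 and Igkj5 rank 3 among all genes in both libraries of tumor #1. Quantile normalization gives equal ranks equal values, so their tumor #1 differences were then 0 by construction. That scaling thus left 3 members with opposite directions, and cannot show whether Igkj1 and Igkj5 differed.

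In tumor #2, 8 of 8 members were higher in Tom+ cells, and 6 of them at least 2-fold, where 4.52% of all genes were at least 2-fold higher and 5.05% at least 2-fold lower. The share of all genes that were higher without a size limit was not counted, and only their median is given below. The members lie in 2 loci and were read in 1 pair of libraries here, so they are not separate observations. These counts of members were the same under each of 4 other scalings of the libraries. The rise was not particular to the J segments. In tumor #2, immunoglobulin genes together, J segments included, were 1.83-fold in Tom+ relative to Tom- cells. Summed heavy-chain V genes were 2.07-fold and summed kappa V genes 2.00-fold. In tumor #1, 1 of 8 members, Igkj4, differed at least 2-fold, where 6.4% of all genes did so. The median log2 difference of the members was 1.47 in tumor #2 and -0.080 in tumor #1, against -0.057 and -0.0029 over all genes tested.

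**Figure D3:**
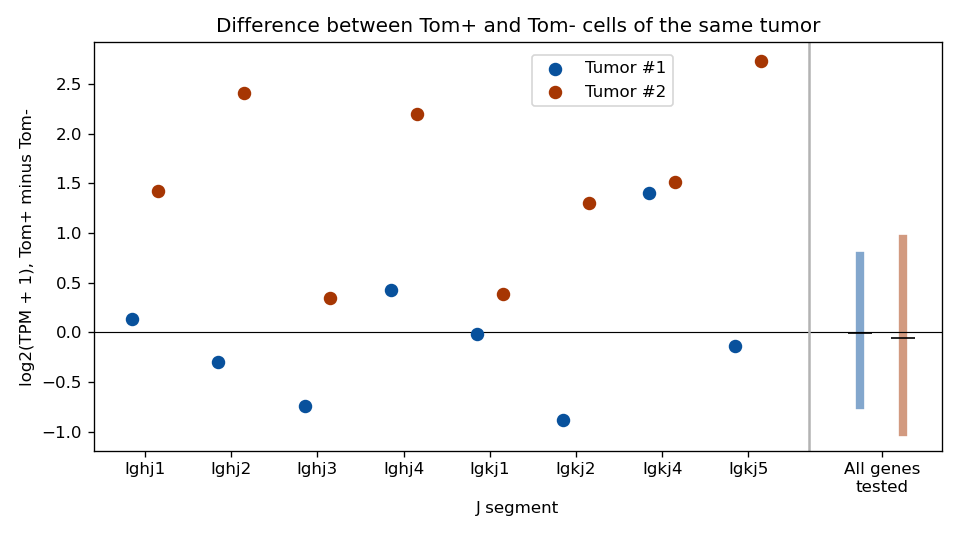
Difference in log2(TPM + 1) between Tom+ and Tom- cells of the same tumor, with 1 point per tumor (blue, tumor #1, and brown, tumor #2). Bars at the right span the 5th to the 95th percentile of all 11339 genes tested, with a dash at the median. All 8 points of tumor #2 lie above 0, and Igkj4 is the only member whose points both lie above the bar of their tumor.

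The difference in tumor #2 was smaller for the leading segment of each locus than for the others. Ighj3, the leader there, was 1.27-fold in Tom+ relative to Tom- cells, while the other 3 heavy-chain members together went from 4401 to 15929 TPM (3.62-fold). Igkj1 was 1.31-fold, while the other 3 kappa members together went from 4167 to 15016 TPM (3.60-fold). In tumor #1 neither part moved by as much, with 0.813-fold for Ighj2 and 1.04-fold for the other heavy-chain members. For kappa it was 0.908-fold for Igkj5 and 0.983-fold for the other members, whose sum was mostly Igkj1. Igkj1 and Igkj5 led together there, so the kappa values of tumor #1 do not set leading against minor segments. The leaders were picked from these same values, 1 pair of libraries per tumor, so the difference is given as a description, with no test.

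**Figure D4:**
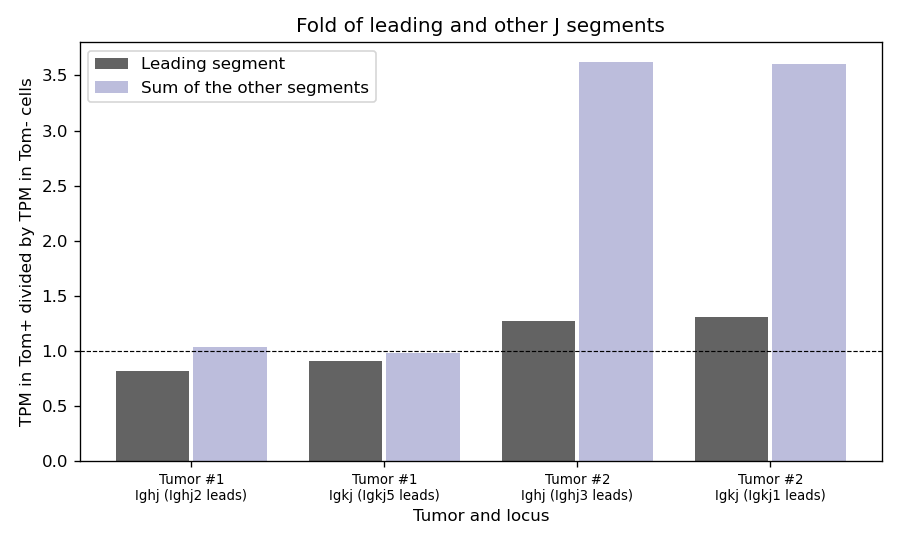
TPM in Tom+ divided by TPM in Tom- cells, for the leading J segment of each locus and tumor (dark bars) and for the sum of the other members of the locus (light bars), with 1 pair of libraries per bar and a dashed line at 1. In tumor #2 the light bars reach 3.62 and 3.60 and the dark bars 1.27 and 1.31. The light kappa bar of tumor #1 is mostly Igkj1, which led there together with Igkj5.

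Summed over a locus, Ighj reached 10831 and 9130 TPM in tumor #1, against 11997 and 25563 TPM in tumor #2. The mean log2 difference was 0.42 ± 0.95 (SD, n = 2 tumors), from -0.25 and 1.09 (two-sided exact permutation test within pairs, p = 1, where 0.5 is the smallest p-value that 2 pairs allow). Summed Igkj reached 34094 and 32181 TPM in tumor #1, against 24228 and 41199 TPM in tumor #2, with a mean log2 difference of 0.34 ± 0.60 (SD, n = 2 tumors), from -0.083 and 0.77 (exact permutation test, p = 1).

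The constant regions to which these segments are spliced were compared in the same way. Ighm, the constant region of IgM, was 0.941-fold in Tom+ relative to Tom- cells of tumor #1 and 1.67-fold in tumor #2. Igkc, the kappa constant region, was 0.917-fold and 1.79-fold. Summed Ighj TPM was between 5.48 and 8.12 times the TPM of Ighm, and summed Igkj TPM between 4.97 and 6.52 times that of Igkc. The level of J segments above that of the constant regions they are joined to was present in each library. The part that the short length of the J transcripts has in it was not tested.

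The V genes with the largest share also differed between the tumors. In tumor #1, Ighv1-50 held 85.9% and 81.1% of heavy-chain V gene TPM in Tom- and Tom+ cells, and Igkv11-125 and Igkv3-12, the latter chosen after its values were seen, held 49.5% and 49.8% of kappa V gene TPM in Tom- and 50.4% and 48.1% in Tom+ cells. In tumor #2, Ighv2-9 held 82.2% in Tom- and 42.3% in Tom+ cells, and Igkv1-135 held 57.6% and 32.3%. Next in mean share among heavy-chain V genes were Ighv3-6 in tumor #1 (12.5% and 16.0%) and Ighv12-3 in tumor #2 (16.2% and 8.36%). Among kappa V genes of tumor #2 it was Igkv15-103 (28.2% and 18.2%), whereas the kappa J segments had a single leader there.

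Markers of plasma cells, which secrete antibody, moved with the library of Tom+ cells from tumor #2. The 6 markers summed to 30.9 and 35.1 TPM in tumor #1 but to 34.7 and 261 TPM in tumor #2. Jchain, which encodes the joining chain of secreted IgM and IgA, accounted for most of this, at 1.24 and 209 TPM in tumor #2, and the other 5 summed to 33.4 and 52.0 TPM. Prdm1, a defining factor of plasma cells, was highest in Tom+ cells of tumor #2, at 0.570 TPM, while Sdc1 was higher in tumor #1 (1.95 and 1.78 TPM) than in tumor #2 (0 and 0.428 TPM). Tnfrsf17, a receptor of plasma cells, was at 0.778 and 0.360 TPM in tumor #1, against 0 and 0.390 TPM in tumor #2. Irf4 was at 17.2 and 19.5 TPM in tumor #1, against 14.6 and 29.4 TPM in tumor #2. Xbp1 was at 10.6 and 11.7 TPM, against 18.7 and 21.2 TPM. Of the 6 markers, 3 (Jchain, Irf4 and Xbp1) were higher in Tom+ cells of both tumors and 0 were lower in both. Over all genes tested these shares were 21.6% and 29.5%. The 7 B cell markers reported summed to 789 and 723 TPM in tumor #1, against 2126 and 1675 TPM in tumor #2. Of the 7, 6 had lower values in Tom+ cells of both tumors, and Pax5 in tumor #2 alone. Of all genes tested, 29.5% were lower in both. In limma's test 0 of the 7 markers had an adjusted p-value below 0.05. Ms4a1, which encodes CD20, had an unadjusted p-value of 0.0475 in this test, where 4.67% of all genes were below 0.05. The part of the plasma cell and B cell markers in the J segment values was not tested.

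The other genes of the pathway were 15 genes for V(D)J recombination and the joining of DNA ends. All 15 were above 0 in at least 1 library, 14 were tested, and 0 had an unadjusted or adjusted p-value below 0.05 in limma's test. Of all genes tested, 4.67% had an unadjusted p-value below 0.05 in this test. The median log2 fold change of the 14 was -0.057, against -0.033 over all genes tested. In both tumors Tom+ cells had more of 2 members (21.6% of all genes) and less of 3 (29.5% of all genes). The most abundant were Hmgb1, which encodes a DNA-bending cofactor of RAG (627 TPM in Tom- and 608 TPM in Tom+ cells of tumor #2, with a log2 fold change of 0.031, SE 0.12), and Xrcc6, which encodes the Ku70 subunit that binds broken ends (0.028, SE 0.13). The related cofactor gene Hmgb2 had a log2 fold change of -0.063 (SE 0.16) and Atm, the kinase of the response to breaks, 0.31 (SE 0.17). Rag1 had 0.613 and 1.17 TPM in tumor #1, against 3.61 and 2.81 TPM in tumor #2. Rag2 had 0.196 and 0.295 TPM in tumor #1, against 4.43 and 2.68 TPM in tumor #2. Both recombinase genes were higher in the libraries of tumor #2. Dntt, which adds bases at the joints, was at 0.208 TPM in Tom- cells of tumor #1 and listed at 0 elsewhere.

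Likeness of profiles was measured as the Euclidean distance between log2(TPM + 1) values centered over the 4 libraries. The immunoglobulin gene nearest to summed Ighj was Ighm (distance 0.42), followed by Igkj3 (0.56) and Iglc2 (0.58). The nearest to summed Igkj was Igkc (0.34), followed by Igkv17-127 (0.37) and Iglc1 (0.52). Genes outside the immunoglobulin loci came closer, with Gm16221 (0.086), Icmt (0.098) and Nme4 (0.10) for Ighj and Kif1b (0.055), Cnot10 (0.070) and Pdxk (0.075) for Igkj. With 4 values per profile and 11339 genes, short distances of this kind are a description only.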

How the data were processed

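RNA of sorted B220+ IgM+ Tom+ and Tom- splenocytes from 2 λ-MYC Tom+/ki mice had been sequenced as single reads of 60 bases. The authors trimmed the reads with Cutadapt, quantified them with Salmon (version 1.9 in the submitters' processing notes) against a GRCm38 mouse transcriptome, and deposited TPM values per gene for 34866 genes. How transcripts were summed to genes is not given in the sources used here, nor was it checked which J transcripts the release named in the methods holds. GENCODE M21 (GRCm38) supplied symbols, positions and transcript sequences and matched 34652 of the identifiers.

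TPM were analyzed as log2(TPM + 1) for the 11339 genes with at least 1 TPM in at least 2 libraries. Fold changes on this scale understate changes of low genes. Tom+ and Tom- cells were compared with limma 3.58.1 (R 4.3.3), with the tumor as a block, a variance trend and Benjamini-Hochberg adjustment at 0.05. The authors ran a count test for paired samples in edgeR, selected at an adjusted p-value below 0.05, and reported differentially expressed genes. That test was not run on TPM. The lack of adjusted calls in limma's fit is therefore no measure of what the authors' test found. Both libraries of a tumor were sorted from the spleen of the same animal, and their deviations correlated across genes (Pearson's r = 0.626). Shares are percentages of summed TPM over the 4 members of a locus. Depth is unknown. The fit was also run on simulated data, but the outcome is not given here and is not used as support. Python 3.11.15, pandas 2.3.3, numpy 2.4.6, scipy 1.17.1 and matplotlib 3.10.9 were used.

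The members and lists were chosen with earlier results of these data known. Named were all 8 members, up to 4 members of each list with the highest mean TPM, the leading V genes and the 3 nearest profiles of each kind, and further genes named were chosen after their values were seen. Alternatives were no tumor block, other pseudocounts (0.1 and 0.5), every gene tested, a filter at a mean of 5 TPM, trimmed-mean scaling, quantile normalization, immunoglobulin or mitochondrially encoded genes left out of the scaling (the latter added after seeing the data), no variance trend, each tumor left out, other fold limits, and other definitions of the shares. The gene that drives Cre and a B cell marker are not reported here.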

Additional observations from a re-analysis of the deposited data

Results flagged for a closer look

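The difference between Tom+ and Tom- cells had opposite signs in the 2 tumors for 5 J segments and for both locus sums, each with 1 pair of libraries per tumor, and the differences between the tumors were not tested. Among all 11339 genes tested, 47.3% had opposite signs. For Igkj1 and Igkj5 the tumor #1 difference was 0 after quantile normalization, by construction, as their ranks were equal in both libraries. On the log2(TPM + 1) scale, the difference in tumor #2 exceeded that in tumor #1 by 2.87 for Igkj5, 2.71 for Ighj2, 2.19 for Igkj2, 1.08 for Ighj3 and 0.40 for Igkj1. For the sums it was 1.34 for Ighj and 0.85 for Igkj.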

How the results depend on the processing

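Without the tumor block, the genes with an unadjusted p-value below 0.05 numbered 140 instead of 530, and 0 passed after adjustment under this or any other fit that was run (adjusted p-values of the J segments from 0.842 to 1). The 80 refitted fold changes of the J segments that kept both tumors all kept their direction. This was given for the fits without the tumor block, with other filters or without a variance trend. Those fits leave a fold change as it is. Leaving out a tumor gives values without a test. The log2 differences then ranged from -0.30 to 2.41 for Ighj2, -0.74 to 0.34 for Ighj3, -0.020 to 0.38 for Igkj1, -0.89 to 1.30 for Igkj2, -0.14 to 2.73 for Igkj5, -0.25 to 1.09 for summed Ighj and -0.083 to 0.77 for summed Igkj, in each case with the positive value in tumor #2. The count of genes that differed between the tumors was 1695, and was 2787 with Tom- libraries only, 2984 with Tom+ libraries only and 419 at a limit of 4-fold, where fewer or stricter conditions apply. Weighting by length moved the J segment shares by at most 2.09 percentage points and adding Igkj3 to the sum by at most 1.40. The weighting used annotated lengths and cannot show how the quantification treated transcripts shorter than the reads. The unknown read depth and the 2 pairs limit every value given.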

Other observations

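The λ locus has J segments of its own, and TPM above 0 were listed for some of them in both tumors. The unknown placement of reads among short, similar segments limits these values too. Iglj1 had 1330 TPM in Tom- and 837 TPM in Tom+ cells of tumor #1, against 743 and 745 TPM in tumor #2. In limma's test its log2 fold change was -0.33 (SE 0.22), with an adjusted p-value of 0.936. It was thus below the leading kappa segments in each library. Iglj3p had 0 and 19.9 TPM in tumor #1, against 69.7 and 32.4 TPM in tumor #2. Iglj3 was at 92.9 TPM in Tom- cells of tumor #2 and listed at 0 elsewhere, and Iglj2 was listed at 0 throughout. Igkj3, the nonfunctional kappa segment, had 222 and 219 TPM in tumor #1, against 418 and 680 TPM in tumor #2, above Igkj4 in tumor #1 and below it in tumor #2.

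Of 12 constant regions, Ighm and Igkc were the most abundant, followed by Iglc3 (284 and 266 TPM in tumor #1, against 574 and 713 TPM in tumor #2) and Iglc1 (351 and 316 TPM, against 375 and 447 TPM). Switched constant regions, chosen after their values were seen, were low. Igha had 0.0549 and 0 TPM in tumor #1, against 0.207 and 31.0 TPM in tumor #2, and Ighg2b and Ighg3 were at 1.31 and 1.08 TPM in Tom+ cells of tumor #2. Of the 12, 6 were tested (Ighm, Ighd, Igkc, Iglc1, Iglc2 and Iglc3), and 0 had an unadjusted p-value below 0.05 in limma's test, against 4.67% of all genes. Igha and the other switched regions did not pass the filter on TPM and were not tested in this fit.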
